A study of Mus musculus with 61 samples.

Results

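Retinal neurons talk to each other through glutamate, GABA, glycine and acetylcholine, and the 58 genes described here encode the receptors for these transmitters. They were taken by symbol from a table of 15149 genes: AMPA, kainate, NMDA, delta and metabotropic glutamate receptors, the alpha, beta, gamma and delta subunits of GABA-A receptors, the rho subunits, the glycine receptor subunits, and the alpha and beta subunits of nicotinic acetylcholine receptors. Subunit genes of other classes, such as Gabre and Chrne, were outside the choice. Of these, 57 encode subunits or receptors, namely 4 AMPA, 5 kainate, 7 NMDA, 2 delta, 8 metabotropic, 12 GABA-A, 3 rho, 5 glycine and 11 nicotinic. The remaining gene, Grid2ip, shares the prefix and encodes a scaffold protein and no receptor. No measured value was used in the choice.

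The libraries were made from retinal cells of DBA/2J mice, an inbred strain in which iris pigment disperses, eye pressure climbs and glaucoma follows as mice age, and of D2-Gpnmb+ mice, which carry a functional Gpnmb allele on the same background and do not. There were 7 libraries of DBA/2J at 9 months given nicotinamide at 500 mg per kg per day, 25 of DBA/2J at 9 months on water, 10 of DBA/2J at 4 months, 9 of D2-Gpnmb+ at 9 months and 10 of D2-Gpnmb+ at 4 months, the last 3 groups also on water. All cells in every group were sorted as positive for Thy1.2 and negative for Cd11b, Cd11c, Cd34, Cd45.2 and GFAP, from eyes whose optic nerves showed no axon loss. Nicotinamide is a precursor of the coenzyme NAD. Whether each library is from its own animal is not stated, so the tests speak only of variation from library to library.

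The values are normalised read counts, reads divided by a size of each library, and libraries held 5133114 to 19501444 reads (median 9730486). The labels call the cells retinal ganglion cells, but ganglion cell markers were low: Slc17a6, the glutamate transporter of ganglion cell synapses, had a median of 0.128 over the 61 libraries and Rbpms, a ganglion cell marker, a median of 10.1. Prkca, a marker of rod bipolar cells, had a median of 2391 and a range of 865 to 5597, and the rod gene Gnat1 ranged from 217 to 21608. Summed over marker lists, the 12 bipolar genes ran from 4352 to 18934, the 11 ganglion cell genes from 32.9 to 169 and the 11 amacrine and horizontal cell genes from 44.4 to 1205. The libraries thus held RNA of several retinal cell types, and the sort did not leave ganglion cells alone. In such bulk libraries fewer cells of a type and less RNA per cell cannot be told apart.

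The columns of the table fall into 3 stretches of 10, 18 and 33 libraries that stood apart in their values. DBA/2J libraries on water at 9 months numbered 6, 16 and 3 in stretches 1, 2 and 3, and D2-Gpnmb+ libraries at 9 months 4, 2 and 3. All 4-month and all nicotinamide libraries were in stretch 3. Each comparison of the receptor genes that involves the other 9-month libraries is therefore given over all libraries and within stretch 3.

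In the retina, photoreceptors, bipolar cells and ganglion cells use glutamate, and amacrine and horizontal cells feed back with GABA or glycine. ON bipolar cells read photoreceptor glutamate through the metabotropic receptor mGluR6, encoded by Grm6, whereas OFF bipolar, horizontal, amacrine and ganglion cells read glutamate mainly through AMPA and kainate channels. Subunits of the rho class form GABA channels at bipolar cell terminals, and starburst amacrine cells release acetylcholine onto nicotinic receptors of amacrine and ganglion cells.

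Receptor genes spanned a wide range of levels in the 20 libraries of 4-month mice. Levels between genes were compared as normalised reads per kilobase of exon, given as mean ± SD over these 20 libraries. Gabrr1, the rho1 subunit, stood at 211 ± 49.0 and Grm6 at 98.8 ± 17.5. Gabrr2, the rho2 subunit, reached 83.4 ± 15.9, and Gabrr3, the rho3 subunit, 2.09 ± 1.07. Gabrr1 lay above Grm6 and Gabrr2 lay above Gabrr3 by more than the summed SDs, whereas Grm6 and Gabrr2 did not differ beyond them. The bipolar cell receptors Gabrr1 and Grm6 were thus among the genes with the highest levels.

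Within families 1 or 2 subunits usually stood above the rest. Among GABA-A genes Gabrb2, encoding a beta subunit, was at 5.99 ± 2.53 and Gabra5, encoding the alpha5 subunit, at 1.66 ± 0.741, a gap wider than the summed SDs. The AMPA genes Gria4, Gria1 and Gria2, which encode the channel subunits GluA4, GluA1 and GluA2, could not be ordered at 10.5 ± 4.48, 10.5 ± 1.70 and 9.98 ± 4.69, and Gria3 was lower at 2.21 ± 1.83. Of the kainate genes, Grik1 reached 10.7 ± 4.16 and the auxiliary-type subunit gene Grik5 8.14 ± 1.21. The highest nicotinic gene was Chrnb1, known as a subunit of the muscle receptor, at 18.6 ± 2.55, ahead of the neuronal genes Chrnb3 at 10.5 ± 5.35 and Chrna6 at 7.06 ± 3.62. Grin1, the subunit that every NMDA receptor needs, was at 2.61 ± 0.788, and Grid1, a delta receptor gene, at 3.43 ± 0.778. Glra1 and Glrb, the alpha1 and beta subunits of glycine receptors, were at 6.55 ± 1.45 and 5.12 ± 1.12. The plot of levels per kilobase gives 52 of the 57 subunits.

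**Figure D1:**
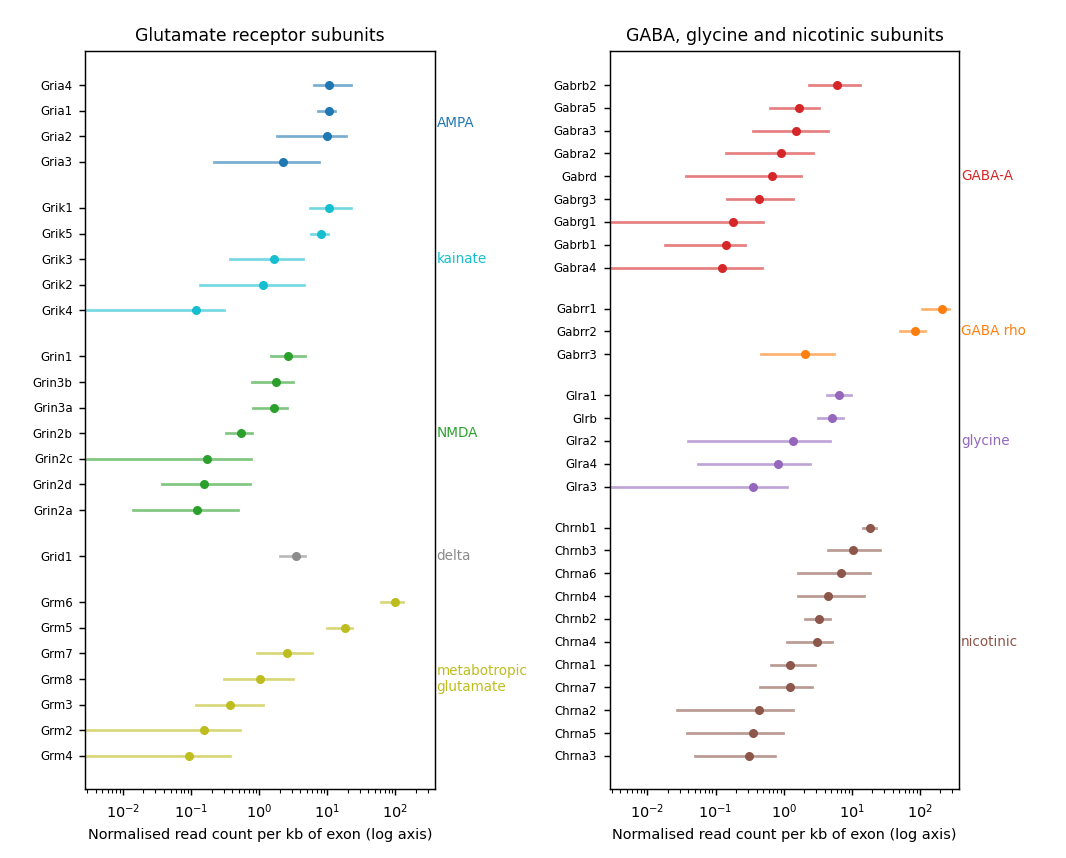
Normalised read counts per kilobase of exon (x, log axis) of 52 receptor genes in the 20 libraries of 4-month DBA/2J and D2-Gpnmb+ mice, grouped by family. Dots are means and lines run from the lowest to the highest library, with lines that reach the left edge including libraries at 0; Gabrr1 (211 ± 49.0) and Grm6 (98.8 ± 17.5) stand highest of those drawn.

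In absolute terms 8 of the 58 genes had a mean normalised count of at least 100 over the 61 libraries, 30 a mean of at least 10 and 14 a mean under 2, and 23 were at 0 in at least 1 library. For the low genes a difference rests on few reads. Exons of 23 genes overlap those of another annotated gene, among them Grm6, Glra1, Gria2, Gria3, Gria4 and Grin1. For 4 of the 23 the other gene is in the table, as for Chrnb2 with Adar and Gabra4 with Gabrb1. Since the sources used here do not state whether counting used strand, values of all such genes are uncertain.

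Several of the genes are neighbours in the genome (GRCm38). Gabrr2 (33062999 to 33095865) and Gabrr1 (33132521 to 33163588) lie side by side on chromosome 4. Gabrg1 (70751047 to 70842617), Gabra2 (70957597 to 71095849), Gabra4 (71569749 to 71658308) and Gabrb1 (71658113 to 72149037) follow each other on chromosome 5. Chrnb3 (27368711 to 27399730) and Chrna6 (27403212 to 27413944) are a pair on chromosome 8. Gria3 (41400854 to 41678601), Gabra3 (72432681 to 72656848) and Glra2 (165129017 to 165327393) are on chromosome X, and Grik2 is on chromosome 10 (49094833 to 49788766).

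Receptor genes differed in the cell type markers they varied with. In the 20 libraries of 4-month mice, after the mean of each strain was taken away, the levels of 50 receptor genes were correlated with the median of 6 marker lists, which gives 300 pairs adjusted together by the Benjamini-Hochberg method over permutation p-values. With amacrine and horizontal cell markers 24 genes were correlated positively and 0 negatively at an adjusted p under 0.05, and 18 of the 24 also by rank. With bipolar cell markers 8 were correlated positively and 12 negatively, and 10 of these 20 also by rank. With Müller cell and astrocyte markers 1 was correlated positively and 17 negatively, 11 of them also by rank, and with rod markers 0 positively and 10 negatively, 5 also by rank. Each of these pairs kept its sign without the 2 libraries farthest from the median. These libraries share their sort and their stretch, and none is from a 9-month mouse. The share of all genes that vary with each list was not counted. Nothing particular to receptor genes can therefore be read from these counts.

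The amacrine and horizontal cell group was led by Gria3, encoding GluA3 (Pearson r = 0.95, adjusted permutation p = 0.000429; Spearman rho = 0.90, adjusted permutation p = 0.00075; n = 20). Without the 2 farthest libraries r was 0.91, and the unadjusted permutation p of 1e-05 behind it is the smallest that 100000 permutations can give. The kainate subunit gene Grik2 had r = 0.86 and rho = 0.83 (adjusted permutation p = 0.0009 and 0.0036), with r at 0.82 without the 2. Gabra2, the alpha2 subunit of GABA-A receptors, had r = 0.83 and rho = 0.72 (adjusted permutation p = 0.00164 and 0.0197), and Glra2, the alpha2 subunit of glycine receptors, r = 0.78 and rho = 0.79 (adjusted permutation p = 0.00254 and 0.0075). Without the 2 farthest libraries r was 0.68 for Gabra2 and 0.66 for Glra2. The relation of Gabrr3 rested on those 2 libraries, with r = 0.63 (adjusted permutation p = 0.0379) but 0.20 without them and rho = 0.39 (adjusted permutation p = 0.236).

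The bipolar cell group held Gabrr1 (r = 0.95, adjusted permutation p = 0.000429; rho = 0.87, adjusted permutation p = 0.00075), whose r was 0.89 without the 2 farthest libraries. Grm6 had r = 0.78 and rho = 0.62 (adjusted permutation p = 0.00489 and 0.0402), with r at 0.62 without the 2. Grid1 had r = 0.81 but rho = 0.57 (adjusted permutation p = 0.00557 and 0.0563), with r at 0.58 without the 2. The other positive genes included Gria1, Grm5, Gabrr2 and Grid2ip. Against the same bipolar markers Gria4 ran the other way, with r = -0.72 and rho = -0.65 (adjusted permutation p = 0.003 and 0.0295) and r at -0.75 without the 2. AMPA genes therefore appeared on both sides, Gria1 with bipolar markers and Gria2, Gria3 and Gria4 with amacrine and horizontal cell markers. With ganglion cell markers 10 genes were correlated positively and 0 negatively, 2 of them also by rank.

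**Figure D2:**
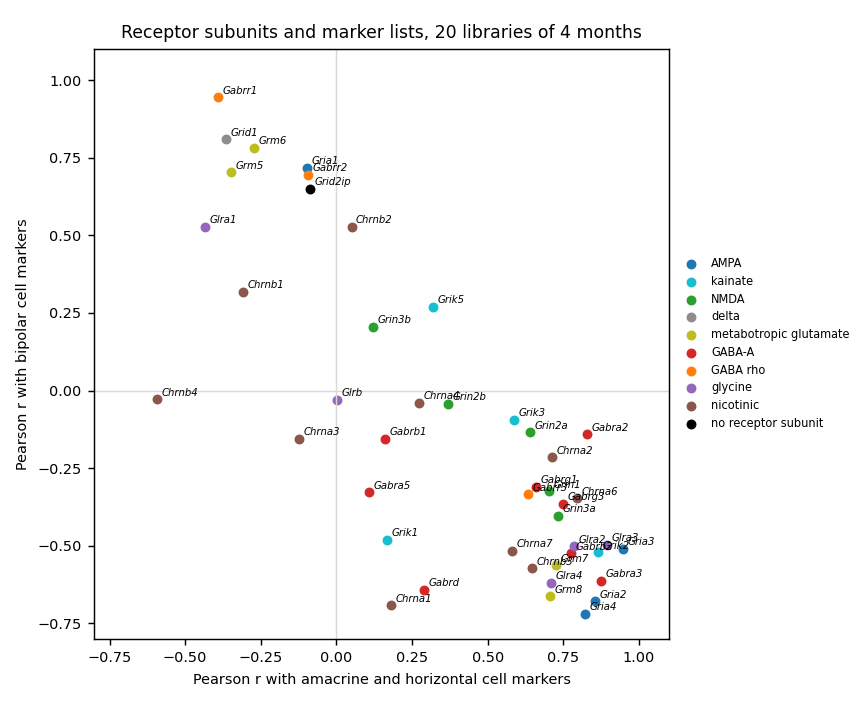
Pearson r of 45 receptor genes with amacrine and horizontal cell markers (x) and with bipolar cell markers (y) over 20 libraries of 4-month mice, after removal of strain means; each dot is a gene coloured by family. Gabrr1 (0.95 with bipolar markers), Grid1 and Grm6 lie at the upper left and Gria3 (0.95 with amacrine and horizontal cell markers) and Grik2 (0.86) at the right.

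Promoters are shown for 2 genes of each kind, Gabra2 and Glra2 from the amacrine and horizontal cell group and the neighbours Gabrr1 and Gabrr2 from the bipolar cell group. Gabra2, Glra2 and Gabrr2 were chosen as correlated genes that hold a motif, and Gabrr1 as the highest gene, so they do not stand for the other genes. Each runs from 250 bases before to 50 bases after the start of the gene as given by RefSeq for GRCm38.p6, on the strand of the gene. They are Gabra2 (chr5:71095800-71096099, minus strand), Glra2 (chrX:165327344-165327643, minus strand), Gabrr1 (chr4:33132306-33132605, plus strand) and Gabrr2 (chr4:33062862-33063161, plus strand). Capitals mark matches on either strand to TAATCC, the core bound by the photoreceptor and bipolar cell factors CRX and OTX2, to GGACAG, the right-hand part of the site of the neuronal repressor REST, and in Glra2 to a joined motif made from parts of that site.
Gabra2: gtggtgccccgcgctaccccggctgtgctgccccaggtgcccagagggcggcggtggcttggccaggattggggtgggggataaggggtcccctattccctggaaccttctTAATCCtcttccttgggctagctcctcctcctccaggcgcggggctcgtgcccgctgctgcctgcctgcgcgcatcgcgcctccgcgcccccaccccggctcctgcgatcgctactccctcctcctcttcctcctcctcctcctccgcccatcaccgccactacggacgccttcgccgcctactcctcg
Glra2: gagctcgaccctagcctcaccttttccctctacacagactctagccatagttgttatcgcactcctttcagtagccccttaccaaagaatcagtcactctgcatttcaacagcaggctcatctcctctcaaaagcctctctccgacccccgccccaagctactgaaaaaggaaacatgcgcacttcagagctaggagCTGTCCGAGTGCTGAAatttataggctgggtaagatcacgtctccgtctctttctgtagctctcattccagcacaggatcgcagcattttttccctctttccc
Gabrr1: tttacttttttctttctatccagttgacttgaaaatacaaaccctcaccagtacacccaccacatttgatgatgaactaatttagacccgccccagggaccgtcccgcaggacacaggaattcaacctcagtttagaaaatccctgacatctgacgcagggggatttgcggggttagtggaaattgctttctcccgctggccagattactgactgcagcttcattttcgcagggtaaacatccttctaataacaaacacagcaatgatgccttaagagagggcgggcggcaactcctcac
Gabrr2: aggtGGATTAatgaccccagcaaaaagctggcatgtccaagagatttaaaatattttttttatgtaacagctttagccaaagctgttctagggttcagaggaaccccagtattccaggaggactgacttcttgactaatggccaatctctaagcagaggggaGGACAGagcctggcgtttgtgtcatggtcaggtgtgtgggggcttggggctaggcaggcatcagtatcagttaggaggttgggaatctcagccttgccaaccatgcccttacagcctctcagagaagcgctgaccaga

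Of the 58 genes 39 had a promoter in the RefSeq table, with 48 promoters in all. TAATCC was found in 2 of the 48, those of Gabra2 (-139 to -134) and Gabrr2 (-246 to -241, opposite strand), and in 7.062% of 32851 promoters of all genes. GGACAG was found in 19 of the 48 and in 22.179% of all, including Gabrr2 and Glra2. The left-hand part of the REST site, TTCAGCACC, was found in 1 of the 48, that of Grm2, and in 0.371% of all, and the cyclic AMP response element TGACGTCA in 0 of the 48 and 1.79% of all. In Glra2 the capitals are the opposite strand of TTCAGCACNNGGACAG, which joins 8 letters of the left-hand part to the right-hand part across 2 bases. Glra2 did not hold the whole left-hand part, so the stretch is no match to a full REST site. This joined motif was chosen after the sequences had been seen, overlaps the GGACAG match, and occurred in 1 of the 32851 promoters. The promoter of Gabra2 had 70.0% G and C and 25 CpG, those of Gabrr1 and Gabrr2 47.3% and 49.3% with 9 and 2 CpG, and that of Glra2 50.3% with 9 CpG. The median of all promoters was 52.7% and 7 CpG, and that of the 48 was 59.8% and 12 CpG.

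The comparison of ages in DBA/2J asks what differs before axon loss in the glaucoma strain. Over all libraries 26 of 54 receptor genes tested were lower at 9 months than at 4 months and 0 were higher. These are calls of limma at a Benjamini-Hochberg adjusted p under 0.05 over all genes, a threshold that 22.4% of all genes passed in either direction and 13.2% as lower. The median log2 fold change of the 54 was -0.56, beside 0.02 over all genes. The 26 comprised 7 of 11 nicotinic, 6 of 11 GABA-A, 1 of 3 rho, 2 of 5 glycine, 3 of 4 AMPA, 1 of 5 kainate, 3 of 6 NMDA, 3 of 6 metabotropic and 0 of 2 delta genes. Fold changes are on the scale of log2 of the value plus 1, which understates the change of low genes.

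Among glutamate channels Grik2, a kainate subunit, had a lowest, median and highest value of 0, 1.22 and 16.1 in DBA/2J at 9 months, against 2.90, 18.7 and 59.7 at 4 months. Most 9-month libraries lay below every 4-month library, with the 2 groups overlapping. The log2 fold change was -2.85 ± 0.38 (SE; limma adjusted p = 2.2e-05). Gria4 had 7.68, 32.9 and 54.0 at 9 months, against 39.8, 66.8 and 138 at 4 months, a log2 fold change of -1.24 ± 0.23 (limma adjusted p = 0.000389). Gria3 had 0.103, 1.92 and 22.9 at 9 months, against 2.14, 26.7 and 73.3 at 4 months (-2.49 ± 0.46, limma adjusted p = 0.000396). Both AMPA genes were lower with overlapping ranges. Grin2b, the NMDA subunit GluN2B, had 2.71, 6.01 and 14.3 at 9 months, against 8.82, 14.9 and 19.3 at 4 months (-1.01 ± 0.21, limma adjusted p = 0.00107). Gria1, the AMPA gene that varied with bipolar markers, gave 0.02 ± 0.28 and did not pass, with medians of 62.7 at 9 months and 64.5 at 4 months.

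Of the metabotropic receptors, Grm6 had 229, 413 and 712 at 9 months, against 431, 593 and 708 at 4 months. The highest libraries of both ages were alike and the lowest were at 9 months. Its log2 fold change was -0.46 ± 0.14 (limma adjusted p = 0.019). Grm7, a presynaptic metabotropic receptor, was also called. Grm5, which couples to intracellular calcium, gave -0.56 ± 0.21 and just missed (limma adjusted p = 0.0526), with medians of 107 at 9 months and 177 at 4 months. The other glutamate channel genes called lower were Gria2, Grin2a and Grin3a. Grik1, the kainate gene with the highest level, gave -0.37 ± 0.33 and did not pass, with medians of 47.6 at 9 months and 56.5 at 4 months.

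Among inhibitory receptors Gabra2 had 0, 0.682 and 8.76 at 9 months, against 1.26, 9.31 and 20.4 at 4 months (-2.36 ± 0.31, limma adjusted p = 2.2e-05). Glra2 had 0, 0.113 and 5.17 at 9 months, against 0.504, 4.60 and 14.9 at 4 months (-1.87 ± 0.31, limma adjusted p = 0.000115). Both were near or at 0 in many 9-month libraries and reached the 4-month range in a few. The 4-month libraries of Gabra2 met the filter alone, and its call was the same with no filter. Other GABA-A genes called were Gabra3, Gabrb2 and Gabrg3. Glra3 was the other glycine receptor gene called, while Glra1, the subunit of adult synapses, gave 0.10 ± 0.21 and did not pass, with medians of 16.8 at 9 months and 15.5 at 4 months. Of the 3 rho genes Gabrr3 was called, with 0, 3.13 and 13.6 at 9 months, against 2.01, 8.49 and 23.04 at 4 months (-1.17 ± 0.37, limma adjusted p = 0.0195). Gabrr1 had 118, 375 and 1079 at 9 months, against 288, 501 and 578 at 4 months. Its 9-month libraries lay both above and below all 4-month ones, and its log2 fold change of -0.32 ± 0.24 did not pass (limma adjusted p = 0.35).

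The nicotinic genes called were Chrna4, Chrna6, Chrna7, Chrnb1, Chrnb2, Chrnb3 and Chrnb4. Chrnb3, an accessory subunit that joins alpha6 receptors, had 1.03, 16.1 and 102 at 9 months, against 28.6, 61.2 and 166 at 4 months (-2.04 ± 0.52, limma adjusted p = 0.0053). Chrna7, which forms receptors of alpha7 alone, gave -1.14 ± 0.26 (limma adjusted p = 0.00231), with medians of 2.09 at 9 months and 5.63 at 4 months. Both fell alongside their relatives, with overlapping ranges. Chrna6, the neighbour of Chrnb3, had 0.206, 5.63 and 34.8 at 9 months, against 4.66, 20.8 and 53.4 at 4 months (-1.38 ± 0.45, limma adjusted p = 0.0247). Chrnb1 had 9.06, 26.3 and 63.9 at 9 months, against 36.6, 47.1 and 57.6 at 4 months (-0.75 ± 0.19, limma adjusted p = 0.00465). Its lowest and its highest library were both at 9 months. Of the 26 calls 21 held in all 35 fits that left out 1 library. Calls of Chrna6, Chrnb2, Chrnb4, Gabrr3 and Grm7 were each lost in 1 to 7 of them, always without a 4-month library for the 4 other than Grm7.

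**Figure D3:**
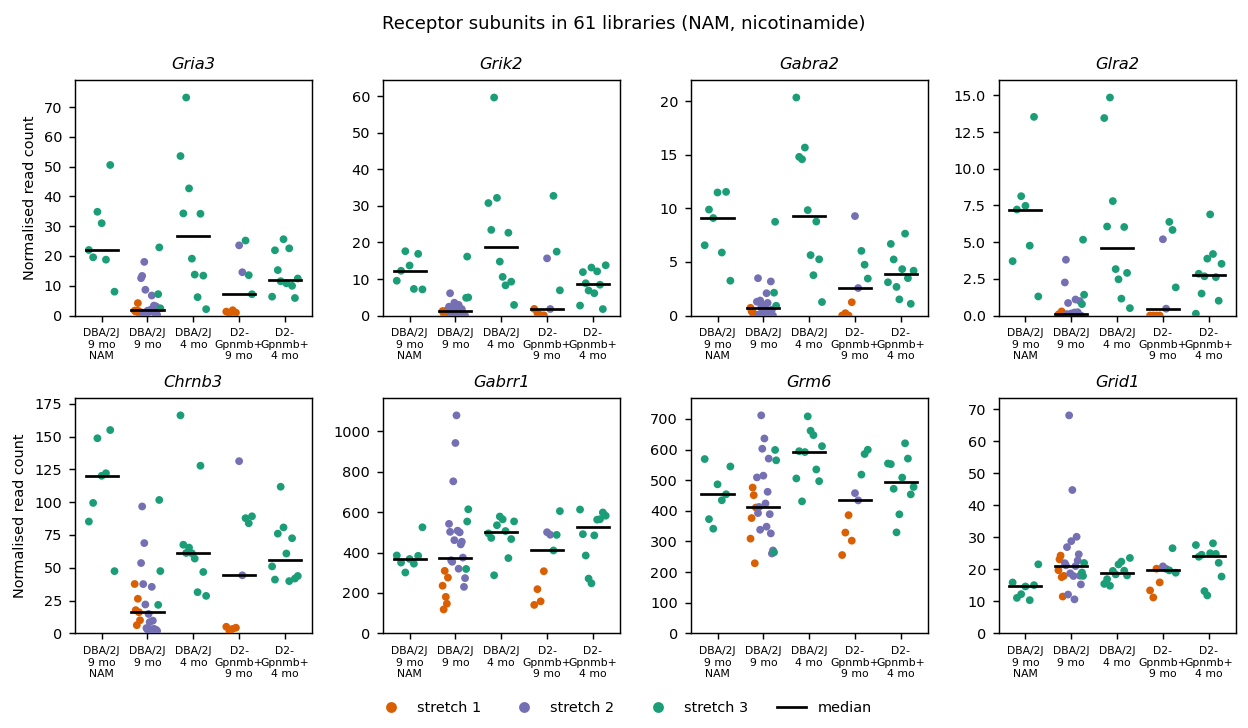
Normalised read counts of 8 receptor genes in all 61 libraries by group, coloured by stretch of the table's columns, with a line at each group's median. Gria3, Grik2, Gabra2, Glra2 and Chrnb3 lie low in most 9-month DBA/2J libraries on water (medians 1.92, 1.22, 0.682, 0.113 and 16.1), whereas Gabrr1, Grm6 and Grid1 overlap across groups.

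Amacrine and horizontal cell markers were also lower at 9 months. Their summed level, over 11 genes, ran from 44.4 to 520 with a median of 95.6 in DBA/2J at 9 months, against 133 to 1172 with a median of 507 at 4 months, and 7 of 9 tested markers were called lower with 0 higher. Within stretch 3 their median sum at 9 months was 150, 0 of 9 were called, and their median log2 fold change was -0.89, beside -2.26 over all libraries. Ganglion cell markers summed to 32.9 to 127 (median 55.3) at 9 months, against 49.5 to 169 (median 80.9) at 4 months, with 2 of 9 called lower. Bipolar markers had medians of 8713 at 9 months and 11510 at 4 months, with 5 of 12 called lower, while 5 of 12 rod markers, 4 of 10 Müller cell and astrocyte markers and 6 of 6 microglia markers were called higher. The microglia sum had a median of 49.7 in the 9-month DBA/2J libraries of stretch 2, against 0.41 in stretch 1 and 1.21 in stretch 3. Of the 7 microglia markers 6 reached the filter, and did so through those stretch 2 libraries, so their count as higher was largely fixed beforehand. Within stretch 3 no microglia marker was high enough to be tested and 0 of any other of these lists were called. The median log2 fold change of the Müller cell and astrocyte markers turned there, at -1.33 beside 0.70 over all libraries, and that of the rod markers was 0.08 beside 1.04. Of the 26 receptor genes called lower, 18 (69.2%) were among the 24 that varied with amacrine and horizontal cell markers at 4 months, an overlap that shares the 4-month DBA/2J libraries. The part of these markers in the receptor result was not tested.

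Within stretch 3, which holds 3 of the 25 DBA/2J libraries at 9 months and all 10 at 4 months, 0 of 58 receptor genes passed, as did 0.263% of all genes. At an unadjusted p under 0.05 there were 5 (8.62%), beside 10.7% of all genes. The 26 genes had a median log2 fold change of -0.31 there, beside -1.21 over all libraries, and 22 of them kept the negative sign. The 3 libraries differed among themselves: Grik2 had 4.85, 16.1 and 4.96, Gabra2 2.13, 8.76 and 0.911, and Glra2 0.776, 5.17 and 1.42, so that 1 library held the highest value of each. The estimates within stretch 3 were -1.33 ± 0.42 for Gria4 (limma adjusted p = 0.239) and -1.24 ± 0.64 for Gabra2 (limma adjusted p = 0.523). With the stretch as a covariate 0 receptor genes and 0.0589% of all genes passed, and without stretch 1 there were 24 of 52 and 19.2%.

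Nicotinamide was compared with water in DBA/2J at 9 months, the question being whether treated mice differ from untreated ones of the same age. Over all libraries 21 of 54 receptor genes were higher with nicotinamide and 0 were lower, where 15.1% of all genes passed in either direction and 9.78% as higher. The median log2 fold change was 0.63 over the 54 genes, beside -0.03 over all genes. They comprised 6 of 11 nicotinic, 5 of 11 GABA-A, 1 of 3 rho, 2 of 5 glycine, 3 of 4 AMPA, 1 of 5 kainate, 1 of 6 NMDA, 2 of 6 metabotropic and 0 of 2 delta genes. This comparison and the one of ages share the 25 DBA/2J libraries on water, and 18 genes were called in both, 8 for age alone and 3, Gabrg1, Gabrd and Chrna2, for nicotinamide alone.

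Gria3 had a lowest, median and highest value of 8.02, 22.02 and 50.6 with nicotinamide, against 0.103, 1.92 and 22.9 on water. Most treated libraries lay above nearly all untreated ones, with some overlap. The log2 fold change was 2.66 ± 0.48 (limma adjusted p = 0.000404). Gria2 had 102, 260 and 277 with nicotinamide, against 7.06, 67.8 and 192 on water (2.15 ± 0.46, limma adjusted p = 0.00204). Grik2 had 7.15, 12.3 and 17.6 with nicotinamide, against 0, 1.22 and 16.1 on water (2.37 ± 0.38, limma adjusted p = 0.000179). Both were higher with overlapping ranges. Grin2a, the NMDA subunit GluN2A, had 1.52, 3.81 and 8.36 with nicotinamide, against 0, 0 and 5.86 on water, where 14 of 25 libraries were at 0 (1.72 ± 0.31, limma adjusted p = 0.000385). Its treated libraries met the filter alone, so it could enter the test through the group where it was high. The call was the same with no filter.

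Gabra2 had 3.25, 9.11 and 11.5 with nicotinamide, against 0, 0.682 and 8.76 on water (2.29 ± 0.32, limma adjusted p = 4.6e-05). Glra2 had 1.30, 7.23 and 13.5 with nicotinamide, against 0, 0.113 and 5.17 on water (2.20 ± 0.32, limma adjusted p = 5.1e-05). The untreated libraries of both genes were mostly near 0, and the ranges overlapped at their upper end. The treated libraries of both also met the filter alone, and both calls were the same with no filter. Gabrr3 had 9.10, 13.5 and 17.8 with nicotinamide, against 0, 3.13 and 13.6 on water (1.81 ± 0.40, limma adjusted p = 0.00244). Chrnb3 had 47.4, 120 and 155 with nicotinamide, against 1.03, 16.1 and 102 on water (2.79 ± 0.61, limma adjusted p = 0.00221). Chrna4, a subunit of the common alpha4 beta2 receptor, gave 1.66 ± 0.32 (limma adjusted p = 0.000694), with medians of 22.5 with nicotinamide and 6.12 on water. Chrna6 had 13.97, 31.2 and 41.6 with nicotinamide, against 0.206, 5.63 and 34.8 on water (1.91 ± 0.50, limma adjusted p = 0.0095). These members of 4 families were all higher with overlapping ranges. The other nicotinic genes called higher were Chrna2, Chrna7 and Chrnb2, and the other inhibitory ones Gabra3, Gabrb2, Gabrd, Gabrg1 and Glra3.

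The receptors of the bipolar cell group did not pass. Gabrr1 had 301, 368 and 525 with nicotinamide, against 118, 375 and 1079 on water, and its log2 fold change was -0.02 ± 0.28 (limma adjusted p = 0.97). Grm6 had 342, 454 and 569 with nicotinamide, against 229, 413 and 712 on water (0.12 ± 0.17, limma adjusted p = 0.676). For both, the untreated range enclosed the treated one. Outside this group Grik1 had 58.9, 100.3 and 124 with nicotinamide, against 9.48, 47.6 and 141 on water, and also missed (1.00 ± 0.39, limma adjusted p = 0.0756). Glra1 gave -0.34 ± 0.25 (limma adjusted p = 0.367), with medians of 12.6 with nicotinamide and 16.8 on water. Of the 8 genes that varied with bipolar markers 0 were called, with a median of 0.03. Of the 24 that varied with amacrine and horizontal cell markers 18 (75.0%) were called, beside 38.9% of the receptor genes tested, and they made up 85.7% of the 21. What lies behind this overlap was not tested. The 24 had a median of 1.69 over all libraries and 0.68 within stretch 3, and the 8 a median of -0.38 within stretch 3.

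Amacrine and horizontal cell markers again moved with the receptors: their sum ran from 205 to 1205 with a median of 657 with nicotinamide, against 44.4 to 520 with a median of 95.6 on water, and 8 of 9 tested were called higher. Within stretch 3 their median sum on water was 150, 0 of 10 were called, and their median log2 fold change was 1.38, beside 2.56 over all libraries. Ganglion cell markers summed to 57.3 to 161 (median 98.5) with nicotinamide, against 32.9 to 127 (median 55.3) on water, with 3 of 10 called higher. Of 9 cone markers 8 were called higher, while 3 of 6 microglia and 3 of 10 Müller cell and astrocyte markers were called lower. Within stretch 3, 0 of the ganglion cell, cone and Müller cell and astrocyte markers were called, and the microglia markers were too low to be tested. Over all libraries the microglia markers reached the filter through untreated libraries of stretch 2, so they could hardly have been called higher. The median of the Müller cell and astrocyte markers turned there, at 0.97 beside -0.96 over all libraries. Their part in the receptor result was not tested.

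Within stretch 3, with 7 treated and 3 untreated libraries, 0 of 56 receptor genes passed, as did 0.00749% of all genes, and 22 (39.3%) had an unadjusted p under 0.05, beside 16.8% of all genes. The 21 genes had a median log2 fold change of 0.94 there, beside 1.72 over all libraries, and 20 kept the positive sign, the exception being Gabrb2 at -0.26 ± 0.24. Gria3 gave 1.47 ± 0.60 (limma adjusted p = 0.254), Gabra2 1.17 ± 0.46 (limma adjusted p = 0.241) and Gria4 1.13 ± 0.38 (limma adjusted p = 0.183). Leaving out replicate 27 of DBA/2J on water, the library with the highest Grik2, Gabra2 and Glra2 of the 3, 6 receptor genes passed within the stretch. How many of all genes passed in that fit is not given here. With the stretch as a covariate 0 receptor genes and 0% of all genes passed. Without stretch 1, 20 genes were higher and 1, Grid2ip, was lower, where 14.3% of all genes passed.

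**Figure D4:**
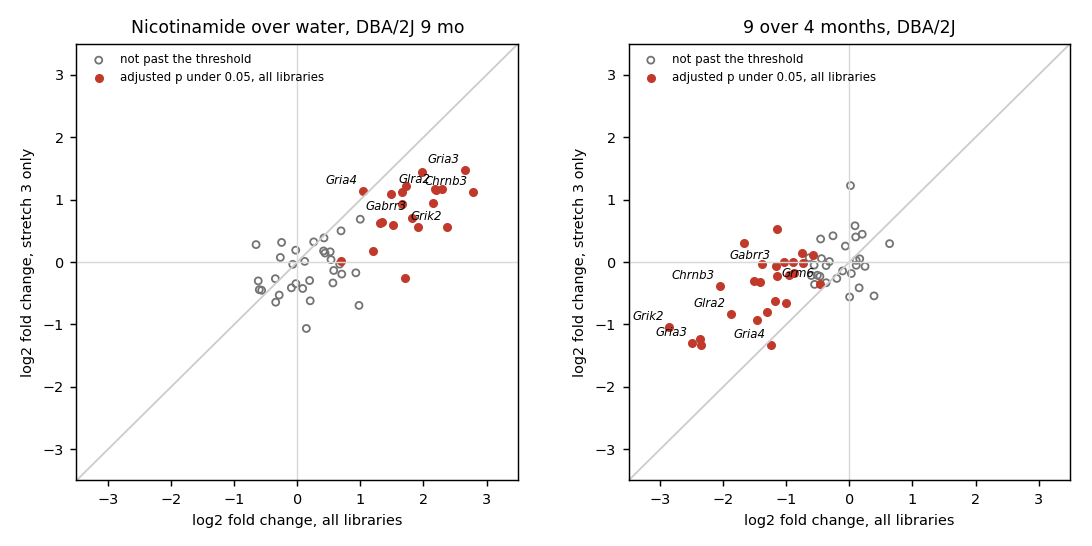
Log2 fold change of receptor genes over all libraries (x) and within stretch 3 (y) for nicotinamide over water (left) and for 9 over 4 months (right) in DBA/2J; filled dots passed an adjusted p of 0.05 over all libraries and the diagonal marks equal values. The medians of the filled dots are 1.72 and 0.94 on the left and -1.21 and -0.31 on the right.

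No receptor gene passed in the comparison of strains at either age. At 9 months 0 of 53 receptor genes passed between DBA/2J and D2-Gpnmb+, beside 0.0218% of all genes, with 8 (15.1%) at an unadjusted p under 0.05, beside 13.2% of all genes. Gria4 came nearest and was the 1 receptor gene that DESeq2 called, while edgeR called 0 receptor genes. It had 7.68, 32.9 and 54.0 in DBA/2J, against 26.8, 55.3 and 93.2 in D2-Gpnmb+, a log2 fold change of -0.93 ± 0.23 (limma adjusted p = 0.0987). DBA/2J had the lower median, with overlapping ranges. Over all genes DESeq2 called 255 of 13755. Glrb was also among the 3 smallest unadjusted p-values of limma, with no value given here. In stretch 1 the median of Gria4 was 34.5 in DBA/2J and 54.9 in D2-Gpnmb+, and in stretch 2 it was 32.7 in DBA/2J, where the 2 D2-Gpnmb+ libraries had 26.8 and 93.2. In stretch 3 Gria4 had 16.9, 52.3 and 21.3 in DBA/2J, against 67.5, 65.9 and 39.6 in D2-Gpnmb+. Within stretch 3, 0 of 50 receptor genes and 0% of all genes passed. Without stretch 1, 0 of 54 passed, but 21 (38.9%) had an unadjusted p under 0.05, all of them lower in DBA/2J, beside 13.2% of all genes. The median log2 fold change of the receptor genes was then -0.49, beside -0.06 over all libraries and -0.31 within stretch 3.

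At 4 months 0 of 50 passed, beside 0.25% of all genes, with 14 of the 50 at an unadjusted p under 0.05, beside 13.5% of all genes, and 11 of the 14 higher in DBA/2J. Gabra5, the alpha5 subunit of GABA-A receptors, had 1.86, 3.53 and 5.12 in DBA/2J, against 3.39, 5.89 and 9.94 in D2-Gpnmb+ (-0.63 ± 0.18, limma adjusted p = 0.134), and was the 1 receptor gene that DESeq2 called, while edgeR called 0 receptor genes. Chrnb2 gave 0.42 ± 0.13 (limma adjusted p = 0.14) and Glrb 0.35 ± 0.11 (limma adjusted p = 0.17). Over all genes DESeq2 called 204 of 12804. Without replicate 10 of DBA/2J at 4 months 2 receptor genes passed in limma, Gabra2 among them, and 92 genes of the whole table.

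In D2-Gpnmb+ 0 of 48 receptor genes passed between 9 and 4 months, beside 0.0232% of all genes, with 12 of the 48 at an unadjusted p under 0.05, beside 30.3% of all genes. The median log2 fold change of the receptor genes was -0.59 over all libraries, but it turned to 0.17 within stretch 3, 0.21 with the stretch as a covariate and 0.17 without stretch 1. DESeq2 called 6 and edgeR 4, beside 2114 and 1495 of all 12910 genes. Glrb and Grik3 were among both. Grik3, a kainate subunit gene, had 9.80, 23.5 and 135 at 9 months, against 3.34, 9.57 and 21.5 at 4 months (1.94 ± 0.47, limma adjusted p = 0.0741). Glrb had 23.2, 30.1 and 51.3 at 9 months, against 14.9, 20.7 and 27.6 at 4 months (0.65 ± 0.15, limma adjusted p = 0.0741). Both were higher at 9 months with overlapping ranges. Chrnb4 gave -1.45 ± 0.38 (limma adjusted p = 0.0741). The result turned on single libraries: leaving out 1 of the 9-month replicates 9, 13, 14 or 15 gave 5, 8, 6 or 8 calls. Without replicate 9, 1010 genes of the whole table passed. The counts over all genes in the other fits are not given here, so nothing particular to receptor genes can be read from these calls. Within stretch 3, 0 of 53 receptor genes and 0% of all genes passed.

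Whether age acted differently in the strains was tested as an interaction, in which 1 of 55 receptor genes passed, beside 0.375% of all genes. Grin2c, the NMDA subunit GluN2C, had 0, 0 and 1.05 in DBA/2J at 9 months, with 16 of 25 libraries at 0, against 0, 1.29 and 3.84 in DBA/2J at 4 months. In D2-Gpnmb+ it had 0, 0.165 and 2.24 at 9 months, against 0, 0.170 and 0.869 at 4 months. The 4-month DBA/2J libraries were highest and all groups overlapped. The age effect in DBA/2J minus that in D2-Gpnmb+ was -1.16 ± 0.27 on the log2 scale (limma adjusted p = 0.0464), and the call held in 26 of 54 fits that left out 1 library, while edgeR called 0 receptor genes. At such counts the difference rests on a few reads per library. Grin2c was below the filter in both comparisons of ages and both of strains. It entered the interaction through the 4-month DBA/2J libraries, where it was highest, so the filter leaned on the same values as the test. Within stretch 3, 0 of 58 receptor genes and 0.0774% of all genes passed.

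**Figure D5:**
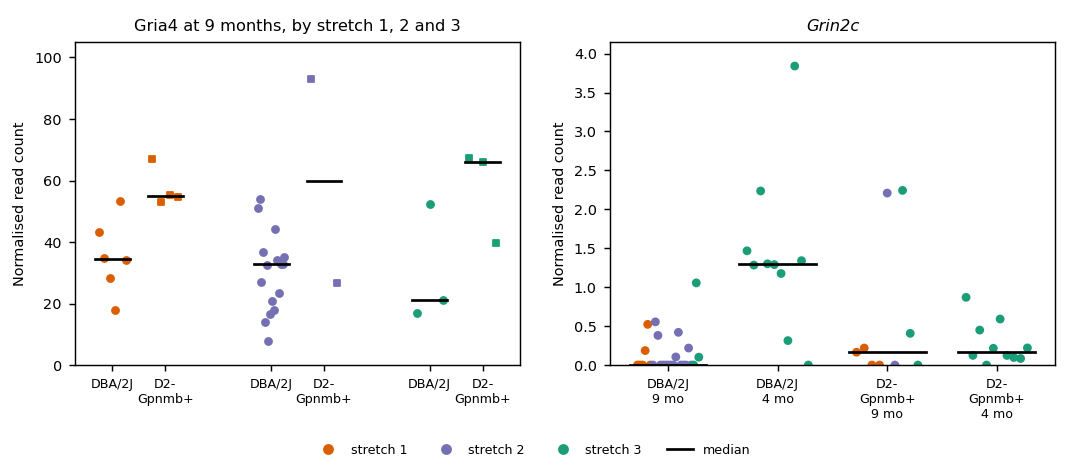
Normalised read counts per library of Gria4 at 9 months in DBA/2J (circles) and D2-Gpnmb+ (squares) by stretch (left), and of Grin2c in the 4 groups on water (right), with lines at medians. Gria4 has the lower median in DBA/2J, with overlapping ranges (32.9 and 55.3 over all libraries), and Grin2c is at 0 in 16 of 25 DBA/2J libraries of 9 months.

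Nicotinamide-treated DBA/2J mice were also set beside mice outside the untreated 9-month group. Against D2-Gpnmb+ of the same age 0 of 52 receptor genes and 0% of all genes passed. An unadjusted p under 0.05 was reached by 27 (51.9%), beside 29.4% of all genes. DESeq2 called 4 and edgeR 2, beside 2083 and 1067 of all 13054 genes. Grin2a had 1.52, 3.81 and 8.36 with nicotinamide, against 0, 0.933 and 2.71 in D2-Gpnmb+ (1.44 ± 0.34, limma adjusted p = 0.076). Gabrg1 gave 1.20 ± 0.31 and Chrnb2 0.84 ± 0.23 (limma adjusted p = 0.079 and 0.081). Within stretch 3 the 3 genes gave 0.80, 0.63 and 0.19. Without replicate 13 of D2-Gpnmb+ at 9 months 15 receptor genes passed, and how many of all genes did so is not given here. Within stretch 3 the metabotropic receptor gene Grm5 passed, 1 of 57 beside 0.299% of all genes, at -0.73 ± 0.14 (limma adjusted p = 0.0475). Its direction turned between the fits, since over all libraries it gave 0.084 ± 0.28 (limma adjusted p = 0.86).

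Against DBA/2J of 4 months 1 of 55 passed, beside 1.54% of all genes. Gabrd, the delta subunit of GABA-A receptors that lie outside synapses, had 2.06, 3.18 and 5.82 in nicotinamide-treated 9-month mice, against 0.105, 1.15 and 2.46 in 4-month mice (1.05 ± 0.22, limma adjusted p = 0.022). The treated libraries were mostly above, and the ranges overlapped. They met the filter alone, and the call was the same with no filter. The call was lost without replicate 3 or replicate 5 of the treated group. For Gria3 the medians were 22.02 with nicotinamide and 26.7 at 4 months, and for Grik2 12.3 and 18.7, and neither passed.

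Proteins that accompany the receptors were counted for the comparisons of age and of nicotinamide in DBA/2J, which share the untreated 9-month libraries. Over all libraries 22.4% of all genes passed with age and 15.1% with nicotinamide, in either direction. Of 12 auxiliary subunits of AMPA and kainate receptors tested, 9 were lower and 0 higher at 9 months, and 7 were higher and 0 lower with nicotinamide. Cacng5, which encodes an AMPA receptor regulator, gave -1.98 ± 0.40 for age and 2.42 ± 0.42 for nicotinamide, and Neto1, encoding a kainate receptor partner, -1.26 and 2.32. Within stretch 3 the list had medians of -0.38 for age over 13 genes and 0.76 for nicotinamide over 12, with 0 called in either. Cacng5 gave -0.57 for age and 1.01 for nicotinamide there, and Neto1 -0.27 and 1.34.

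Of 19 genes for making and moving the transmitters, 9 were lower and 0 higher with age, and 7 were higher and 1 lower with nicotinamide. Gad1 and Gad2, the enzymes that make GABA, gave -2.71 ± 0.59 and -2.61 ± 0.67 for age and 3.26 ± 0.66 and 3.62 ± 0.76 for nicotinamide, and Slc32a1, the vesicle transporter of GABA and glycine, -2.26 ± 0.47 and 2.56 ± 0.52. These are genes of GABA and glycine neurons. Of 12 inhibitory scaffold genes 6 were lower and 1, Gabarap, was higher with age, and 4 were higher with nicotinamide. Gphn, encoding the scaffold gephyrin, gave 0.05 and -0.11 and passed in neither. Of 19 excitatory scaffold genes 6 were lower and 1 higher with age, and 4 higher and 1 lower with nicotinamide. Within stretch 3, 0 genes of the transmitter list and of both scaffold lists were called in either comparison. There the transmitter list had medians of -0.65 over 20 genes for age and 0.47 over 21 for nicotinamide, with Gad1 at -0.93 and 1.48, Gad2 at -0.89 and 1.90 and Slc32a1 at -0.83 and 1.13.

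Genes of the signalling chain behind Grm6 in ON bipolar cells were counted in the same way. Of 15 genes 2 were higher, Lrit3 and Rgs11, and 1 was lower, Nyx, with age in DBA/2J, a share near that of all genes, and 0 of 15 were called with nicotinamide or in either comparison within stretch 3. Trpm1, the channel that mGluR6 controls, gave -0.13 for age and -0.30 for nicotinamide, neither past the threshold. Of 3 nicotinic assembly genes tested, Ric3 was the 1 called over all libraries, lower with age (-0.40 ± 0.15, limma adjusted p = 0.0425) and higher with nicotinamide (0.49 ± 0.17, limma adjusted p = 0.0491). Within stretch 3 Ric3 turned to 0.40 for age and -0.32 for nicotinamide and passed in neither, and Lynx1, which encodes a modulator of nicotinic receptors, was called higher with age (1.17 ± 0.20, limma adjusted p = 0.0177), beside 0.12 over all libraries.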

How the data were processed

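RNA from Thy1.2-sorted retinal cells was sequenced in 61 libraries. TopHat2 2.0.7, Bowtie2 2.0.6, HTSeq and build mm10 are named in the submitters' processing notes, without their roles. The deposited values are a signal: gene read counts that the authors divided by a size of each library, close to edgeR's TMM scaling (ratio 0.9984 to 0.9995). All positive values were whole multiples of 1 read within a tolerance of 0.05, so reads could be recovered. Of the table's 15171 genes 22 with names turned into dates were left out, and each of the 15149 kept had a read in at least 13 libraries. The plan named a count test; since the values are not counts, limma 3.58.1 in R 4.3.3 (trended and robust) was run on log2 of the value plus a pseudocount of 1, on the compared groups only, for genes reaching a value of 1 in enough libraries to fill the smaller group, and Benjamini-Hochberg adjustment over all genes (threshold 0.05). Its code was tested on simulated data. Alternatives were edgeR 4.0.16 and DESeq2 1.42.0 on recovered reads, a pseudocount of 0.25, no filter, other scalings, the stretch of columns as a covariate, stretch 3 alone and each library left out; leaving out stretch 1 was added after seeing the data.

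Columns match groups of the labels but not single samples. The stretches were set by hand from column order after values had been looked at, match 3 series of sample numbers in the labels, and have no stated meaning. Genes and lists were chosen with earlier results of these data known. Named with values were a fixed set (Grm6, Gabrr1, Grik1, Gria3, Glra1, Chrna6, Chrnb3), the highest gene per family, and per comparison the gene of each family with the smallest adjusted p in each direction, or the 3 smallest p-values where none passed; others were chosen after their values were seen, and some genes are not reported here. No 2 libraries held the same reads (chi-squared per gene 7.0 or more). Coordinates are GENCODE vM21. Correlations and plots used Python 3.11.15, NumPy 2.4.6, pandas 2.3.3, SciPy 1.17.1 and matplotlib 3.10.9.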

Additional observations from a re-analysis of the deposited data

Results flagged for a closer look

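In 108 groups of 4 to 10 libraries, over 27 named genes, 5 held a library whose gap to the nearest other exceeded Dixon's limit, where chance gives about 1 in 20. In DBA/2J given nicotinamide, Chrna6 was 13.97 in replicate 8, against 27.8 to 41.6 in the other libraries. In the same group Chrnb4 was 24.2 in replicate 2, against 9.16 to 13.5, Glrb was 36.2 in replicate 7, against 23.6 to 28.4, and Grin1 was 20.6 in replicate 1, against 26.1 to 30.5. In D2-Gpnmb+ of 4 months Grin2b was 8.07 in replicate 6, against 11.3 to 14.3 in the others. The age effect on Grin2c differed between the strains, by -1.16 on the log2 scale in the test of the interaction, at values that were mostly under 2. Grin2c was below the filter in the separate comparisons of ages and of strains.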

How the results depend on the processing

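The calls for age (26) and nicotinamide (21) in DBA/2J stayed within 1.5 times under every count tool, scaling, pseudocount and filter tried, at 20 to 31 and 17 to 25, and fell to 0 with the stretch as a covariate or within stretch 3, where fewer libraries entered. These counts join both directions. For nicotinamide edgeR called 16 higher and 1 lower, and DESeq2 15 higher and 3 lower. For age DESeq2 called 20 lower and 1 higher. Where other counts of receptor genes moved by over 1.5 times the cause was not tested, except that fewer libraries entered within stretch 3. With DESeq2 the counts were 1 for strain at 4 months, 1 for strain at 9 months and 6 for age in D2-Gpnmb+. They were 3 for the interaction, 4 for nicotinamide against D2-Gpnmb+ and 4 for nicotinamide against 4 months. Over all genes DESeq2 called 204, 255, 2114, 284, 2083 and 499 in the same order. With edgeR the receptor counts were 4 for age in D2-Gpnmb+, 0 for the interaction and 2 for nicotinamide against D2-Gpnmb+. Over all genes edgeR called 1495, 42 and 1067 there. The interaction had 0 calls with a pseudocount of 0.25, the covariate or stretch 3, 4 when scaled to the same total and 3 without stretch 1, and nicotinamide against D2-Gpnmb+ had 1 within stretch 3. Leaving out 1 library gave 0 to 2 calls for strain at 4 months, 0 to 1 for strain at 9 months, 0 to 8 for age in D2-Gpnmb+, 0 to 3 for the interaction, 0 to 15 for nicotinamide against D2-Gpnmb+ and 0 to 5 for nicotinamide against 4 months. Within stretch 3 it gave 0 to 2 for strain at 9 months, 0 to 1 for age in DBA/2J, 0 to 1 for the interaction, 0 to 6 for nicotinamide and 0 to 3 for nicotinamide against D2-Gpnmb+. Counts over all genes moved too, as from 3 to 1010 for age in D2-Gpnmb+ without replicate 9 of the 9-month group. Nothing particular to receptor genes can be read from these ranges. Scaling every library to the same total moved the median log2 fold change of all genes to 0.24 for strain at 4 months, -0.13 for strain at 9 months, 0.31 for age in D2-Gpnmb+ and -0.36 for the interaction, so that the changes there are relative to it.

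Some estimates that had not passed the threshold changed sign. Grm5, for nicotinamide against D2-Gpnmb+, did so and then passed, at 0.084 over all libraries and -0.73 within stretch 3. None of those given below passed after it. At 9 months between strains Grik1 gave -0.18 with DESeq2 and -0.17 with edgeR, and Gria3 with nicotinamide against 4 months gave -0.15 with both. Scaled to the same total, the strain effect was 0.076 for Glra1 at 4 months, and -0.11 for Grm6, -0.042 for Grik1 and -0.016 for Glra1 at 9 months. With that scaling age in D2-Gpnmb+ gave 0.13 for Grm6 and 0.17 for Glra1, the interaction -0.21 for Gabrr1 and -0.092 for Glra1, and nicotinamide 0.030 for Gabrr1. Between strains at 9 months stretch 3 gave -0.34 for Grm6, -0.053 for Gabrr1, -0.66 for Grik1 and -0.098 for Glra1, and the covariate -0.017 for Grm6, -0.034 for Gabrr1 and -0.073 for Glra1. Stretch 3 and the covariate gave the same estimates for age and nicotinamide. These were 0.0084 for Gabrr1 for age in DBA/2J. For age in D2-Gpnmb+ they were 0.22 for Grm6, 0.11 for Gabrr1, 0.14 for Grik1, 0.077 for Gria3, 0.33 for Glra1, 0.49 for Chrna6 and 0.57 for Chrnb3. For nicotinamide against D2-Gpnmb+ they were -0.33 for Grm6 and -0.40 for Gabrr1. The interaction was -0.098 for Gabrr1 and -0.20 for Grik1 in stretch 3 and -0.079 for Gabrr1 with the covariate. Without stretch 1 the strain effect at 9 months was -0.25 for Grm6, -0.084 for Gabrr1, -1.29 for Grik1 and -0.10 for Glra1. Without stretch 1 age in D2-Gpnmb+ gave 0.085 for Grm6, 0.11 for Gabrr1, 0.28 for Grik1, 0.25 for Gria3, 0.26 for Glra1, 0.51 for Chrna6 and 0.49 for Chrnb3. Without it the interaction was -0.13 for Gabrr1 and -0.83 for Grik1, and nicotinamide against D2-Gpnmb+ -0.19 for Grm6, -0.40 for Gabrr1 and -0.12 for Grik1.

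Leaving out 1 library moved the strain effect at 4 months between -0.054 and 0.13 for Gabrr1 and -0.069 and 0.21 for Chrnb3. At 9 months it ran between -0.081 and 0.072 for Grm6, -0.22 and 0.27 for Grik1 and -0.074 and 0.18 for Glra1. Age in D2-Gpnmb+ ran between -0.24 and 0.0079 for Glra1, nicotinamide between -0.10 and 0.041 for Gabrr1, and nicotinamide against 4 months between -0.13 and 0.41 for Gria3. No paired analysis was possible because the groups share no numbers in their sample titles and columns could not be matched to single samples. Genes with values near 1 rest on few reads, and the stretch, whose meaning is not stated, cannot be told apart from most of the difference between 9-month water libraries and the other groups.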

Other observations

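Some genes had groups that did not overlap within stretch 3 although none of the receptor genes did so over all libraries. In DBA/2J at 9 months on water Gria1 had 305, 72.7 and 164, against 52.4, 65.9 and 66.1 in D2-Gpnmb+ of the same age; the log2 fold change was 1.32 ± 0.44 (limma adjusted p = 0.748). With nicotinamide Gabra5 lay below and Grm4 above all 3 libraries on water; Gabra5 gave -0.53 ± 0.21 (limma adjusted p = 0.241). These genes were chosen after their values were seen. The share of all genes without overlap was not counted, so with 3 libraries in a group nothing particular to these genes can be read from the gaps.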
